A study of Homo sapiens with 12 samples.

Results

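The regions described here were intervals of open chromatin that were called as peaks in every library of MIAPaCa2 cells except those of parental cells given oxamate. They were chosen by the calls themselves: peaks of 12 ATAC-seq lists that overlapped by at least 1 bp were merged on chromosomes 1 to 22 and X, and a merged region was kept when 3 of 3 libraries of Parental-Untreated, Resistant-untreated and Resistant-treated cells held a peak in it and 0 of 3 libraries of Parental-treated cells did. Of 178040 merged regions, 460 (0.258%) met the rule. Because the calls of these 12 libraries selected the members, the absence of a peak in treated parental cells is the definition of the set and not a result, and it is given with no test.

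MIAPaCa2 is an established pancreatic ductal adenocarcinoma line that relies on glycolysis, and oxamate is an inhibitor of lactate dehydrogenase A (LDHA), the enzyme that turns pyruvate into lactate. The Parental-Untreated and Parental-treated groups were the original line without and with oxamate. The Resistant-untreated and Resistant-treated groups were a population of the same line that had survived weeks of culture in oxamate, again without and with the agent. Every group held 3 libraries, and nothing in the labels says that these came from separate cultures, so that p-values measure only the spread between these libraries, which may be technical. The labels name no engineered allele in any group, and the resistant cells were a surviving population and not a line grown from a named clone.

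In ATAC-seq the Tn5 transposase cuts and tags DNA that is not wrapped around nucleosomes or covered by other proteins, so that promoters, enhancers and insulators in use give clusters of fragments. Most promoters of broadly used genes are rich in CpG and open in nearly every cell, whereas enhancers and the promoters of developmental genes are open in some cell types and states. A broad peak caller then keeps stretches where fragments exceed the local background, so that an absent call means that the excess did not reach the threshold in that library, not that the DNA was inaccessible.

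As a check of the label, keratin genes KRT8 and KRT18, the mesenchymal filament gene VIM and LDHA had a peak at a gene end in 12 of 12 libraries. KRT19 had a peak in 10, with 1 of 3 Parental-treated libraries among them, whereas KRT7 and EPCAM had a peak in 1 library and CDH1, the epithelial cadherin, in 0. Among genes that mark other cell types, PTPRC and CD3E (blood), PECAM1 and CDH5 (endothelium), INS and GCG (islets), ALB (liver) and DCN (fibroblasts) had a peak in 0 of 12 libraries. PRSS1, a gene of acinar cells, had a peak in 1 Parental-treated library, and COL1A1, a collagen gene of fibroblasts and other mesenchymal cells, in 12.

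The sequences of 6 promoters that lay whole inside a member are shown because they are the best ranked of the protein-coding genes whose complete promoter window a member contained. Each is the RefSeq promoter of build GRCh38.p14, written 5′ to 3′ on the strand of the gene. Capitals mark matches on either strand to the AP-1 letters TGANTCA, the GC box GGGCGG, the CCAAT box, the E-box CACGTG, the ETS letters CCGGAA or the TATA box TATAAA. In the ZNF792 promoter a GC box and a CCAAT match adjoin and read as a run of capitals. The windows lie at chr4:93828503-93828802 on the plus strand (ATOH1), chr7:82443907-82444206 on the minus strand (CACNA2D1), chr1:7940790-7941089 on the minus strand (TNFRSF9), chr19:34964180-34964479 on the minus strand (ZNF792), chr3:12004138-12004437 on the plus strand (SYN2) and chrX:75522988-75523287 on the minus strand (ZDHHC15).
ATOH1: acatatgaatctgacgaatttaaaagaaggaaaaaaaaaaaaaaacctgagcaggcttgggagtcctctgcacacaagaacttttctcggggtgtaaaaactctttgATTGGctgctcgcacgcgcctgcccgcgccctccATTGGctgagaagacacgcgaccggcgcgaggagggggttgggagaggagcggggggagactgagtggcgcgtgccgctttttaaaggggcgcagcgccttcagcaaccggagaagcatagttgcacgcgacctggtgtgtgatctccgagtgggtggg
CACNA2D1: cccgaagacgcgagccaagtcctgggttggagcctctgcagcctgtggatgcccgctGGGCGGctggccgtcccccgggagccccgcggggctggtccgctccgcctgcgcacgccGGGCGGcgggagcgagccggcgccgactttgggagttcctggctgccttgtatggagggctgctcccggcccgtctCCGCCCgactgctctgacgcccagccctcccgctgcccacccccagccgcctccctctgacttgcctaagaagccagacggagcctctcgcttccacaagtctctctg
TNFRSF9: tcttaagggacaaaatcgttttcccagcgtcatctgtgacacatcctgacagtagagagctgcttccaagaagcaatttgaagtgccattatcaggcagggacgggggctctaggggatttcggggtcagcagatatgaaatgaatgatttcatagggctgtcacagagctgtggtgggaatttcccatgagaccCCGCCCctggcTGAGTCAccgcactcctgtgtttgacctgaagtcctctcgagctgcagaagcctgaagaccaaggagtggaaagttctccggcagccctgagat
ZNF792: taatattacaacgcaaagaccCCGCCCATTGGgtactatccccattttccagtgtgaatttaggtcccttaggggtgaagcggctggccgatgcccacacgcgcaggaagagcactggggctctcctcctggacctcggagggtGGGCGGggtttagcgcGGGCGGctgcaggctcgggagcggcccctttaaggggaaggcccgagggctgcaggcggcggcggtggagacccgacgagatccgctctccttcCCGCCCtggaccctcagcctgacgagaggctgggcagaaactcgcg
SYN2: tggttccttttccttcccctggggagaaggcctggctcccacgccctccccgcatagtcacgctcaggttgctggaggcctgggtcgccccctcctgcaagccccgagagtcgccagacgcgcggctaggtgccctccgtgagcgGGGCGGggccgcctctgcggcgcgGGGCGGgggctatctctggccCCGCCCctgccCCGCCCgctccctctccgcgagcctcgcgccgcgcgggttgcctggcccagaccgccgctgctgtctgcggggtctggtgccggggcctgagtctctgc
ZDHHC15: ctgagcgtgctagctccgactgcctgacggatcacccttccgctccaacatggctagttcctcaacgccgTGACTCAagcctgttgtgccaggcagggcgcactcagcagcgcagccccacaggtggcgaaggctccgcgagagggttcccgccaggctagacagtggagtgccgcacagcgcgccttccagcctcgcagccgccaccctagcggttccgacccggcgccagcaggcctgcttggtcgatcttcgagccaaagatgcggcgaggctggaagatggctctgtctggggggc

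These 6 promoters differed in composition. GC content was 56% for ATOH1 and 52.3% for TNFRSF9, and 65% to 75% for ZNF792, ZDHHC15, CACNA2D1 and SYN2. ZNF792 and SYN2 held 4 GC boxes each, CACNA2D1 held 3 and TNFRSF9 held 1. ATOH1 held 2 CCAAT matches and ZNF792 held 1, and TNFRSF9 and ZDHHC15 held 1 AP-1 match each.

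The absence of calls was far more frequent in treated parental cells than in any other group. Of 29599 regions called in 9 of 9 libraries of the other groups, 460 (1.55%) had no call in the 3 Parental-treated libraries, 1547 (5.23%) had a call in 1 and 3444 (11.6%) in 2. The same rule left 6 of 24408 regions (0.0246%) missing only in Parental-Untreated cells, 7 of 24510 (0.0286%) missing only in Resistant-untreated cells and 14 of 24625 (0.0569%) missing only in Resistant-treated cells. These denominators are unlike, because regions counted for the other groups had to be called in 3 of 3 Parental-treated lists, which held weaker peaks. At median ranks of 60% to 70%, 1218 regions were eligible for Parental-treated, and 489, 423 and 391 for Parental-Untreated, Resistant-untreated and Resistant-treated. Taken library by library, 11.3%, 5.17% and 10.3% of the regions common to the other groups were missing in Parental-treated replicates 1, 2 and 3. The corresponding shares were 0.324%, 0.197% and 0.668% for Parental-Untreated, 0.453%, 0.722% and 0.579% for Resistant-untreated, and 0.512%, 1.17% and 0.711% for Resistant-treated libraries. The shares of the 3 treated parental libraries lay above those of the other 9 without overlap, and replicate 2 had the lowest share of the 3. All these shares come from the calls that the rule used, over unlike sets of regions, so they are a description with no test. Asked of 2 treated parental libraries, the rule gave 755 regions without replicate 1, 1340 without replicate 2 and 832 without replicate 3. The members made up 28.1% of the 1639 regions that had a call in 3 of 3 Parental-Untreated and 0 of 3 Parental-treated libraries, and 18.3% of the 2507 regions that had a call in 3 of 3 Resistant-treated and 0 of 3 Parental-treated libraries.

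**Figure D1:**
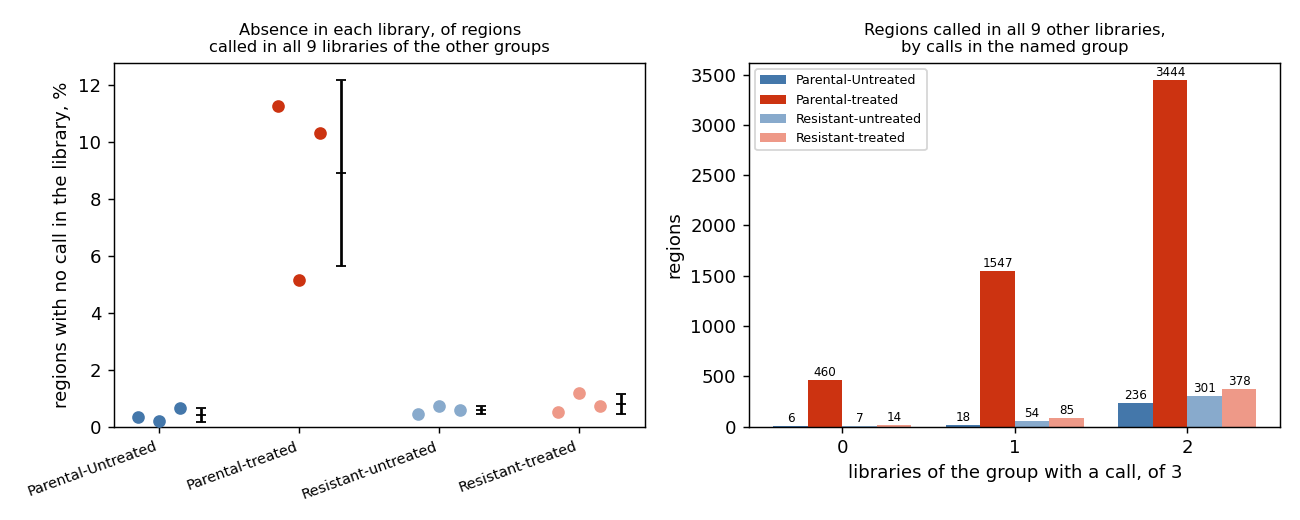
Left, the share of regions called in all 9 libraries of the other groups that had no call in each library, in percent, with points for libraries and black marks for the group mean and SD (n = 3). Right, the number of such regions by how many libraries of the named group held a call. The Parental-treated libraries sit at 5.17% to 11.3%, and the other 9 libraries at 0.197% to 1.17%.

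Technical properties of the lists moved with the group and are given beside the counts for that reason. Relative depth, recovered from the lists with the shallowest library set to 1, was 2.27 ± 0.559 (SD, n = 3) in Parental-treated and 1.35 ± 0.320 (n = 9) in the other libraries, a difference of 0.919 (two-sided exact permutation test over libraries, p = 0.0136, adjusted p = 0.0273 over 4 tests). The smallest peak width, which follows the fragment length, was 73.0 ± 7.21 bp against 98.6 ± 15 bp (exact permutation p = 0.0273, adjusted p = 0.0364). Peaks covered 17.2 ± 2.97 Mb against 26.4 ± 4.11 Mb, lower in 3 of 3 treated parental libraries than in any of the other 9 (exact permutation p = 0.00455, the smallest these 220 assignments can give, adjusted p = 0.0182). The number of peaks was 54432 ± 8355 against 56506 ± 4452 (exact permutation p = 0.632, adjusted p = 0.632). Cover and number of peaks come from the same calls that chose the members, so their tests are not independent of the rule. The median -log10 q of the Parental-treated lists was 2.84, 2.43 and 2.25, below the medians of the other 9 lists, which ran from 2.87 to 5.24. The relative depth of 1.66 in Parental-treated replicate 1 lay below the 1.77 of Parental-Untreated replicate 3 and the 1.85 of Resistant-untreated replicate 2, and the smallest widths of the groups also overlapped. Without a Parental-treated library the differences in depth, width and cover kept their direction but had adjusted p of 0.0727 to 0.121 by exact permutation, and without replicate 1 the treated lists had 2268 more peaks. The part of depth, fragment length and peak strength in the absence of calls was not tested.

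The members were moderate to weak peaks in the 9 lists that held them. Strength was read as the rank of the best peak of a region by -log10 q within its own list, as a percentile in which 0 is the strongest. Over the 9 lists the median rank of the members was 59.4% (quartiles 52.6% and 66.8%, range 24.7% to 92.4%), the median -log10 q was 3.20 and the median fold over local background was 4.06. Of 460 members, 88 (19.1%) had a median rank of at most 50% and 1 of at most 25%, and 27 (5.87%) reached a -log10 q of 3 in 9 of 9 lists. Just outside the rule, regions called in 1 of 3 Parental-treated libraries had a median rank of 53.9% and those called in 2 of 3 a median of 47.7%, while regions called in 12 libraries had a median of 23.2%.

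The rank of the members varied between the 9 lists. The median rank was 60.0%, 59.2% and 59.2% in the Parental-Untreated lists, 54.0%, 60.6% and 61.4% in the Resistant-untreated lists and 55.3%, 70.8% and 60.6% in the Resistant-treated lists. The members were weakest by rank in Resistant-treated replicate 2 and strongest in Resistant-untreated replicate 1. Of the members, 12 (2.61%) ranked better in 3 of 3 Parental-Untreated lists than in any of the 6 resistant lists, against 6.27% of the 29599 regions called in these 9 libraries, and 21 (4.57%) ranked worse, against 2.56%. Within resistant cells 47 members (10.2%) ranked worse in 3 of 3 treated than in 3 of 3 untreated lists, against 6.35% of the 29599 regions, and 8 (1.74%) ranked better, against 2.49%. The 29599 regions span every strength whereas the members were of medium to low strength, so these shares are given side by side only.

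The share of regions that lost their call in treated parental cells rose as strength in the other lists fell. It was 0 of 5210 for regions with a median rank in the strongest 10% and 0 of 5320 in the next 10%, then 0.0573%, 0.351%, 1.56%, 5.53%, 11.9%, 16.2% and 27.8% in the following steps of 10% up to a rank of 90%. The exact (Clopper-Pearson) 95% interval, which covers counting error only, was 4.71% to 6.44% for ranks of 50% to 60%, and 10.1% to 13.9% for 60% to 70%. At ranks of 50% to 60% the shares missing in the other groups were 0.135% for Parental-Untreated, 0.218% for Resistant-untreated and 0.152% for Resistant-treated. Ranks come from the same lists whose calls chose the members, so these shares are a description with no test.

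**Figure D2:**
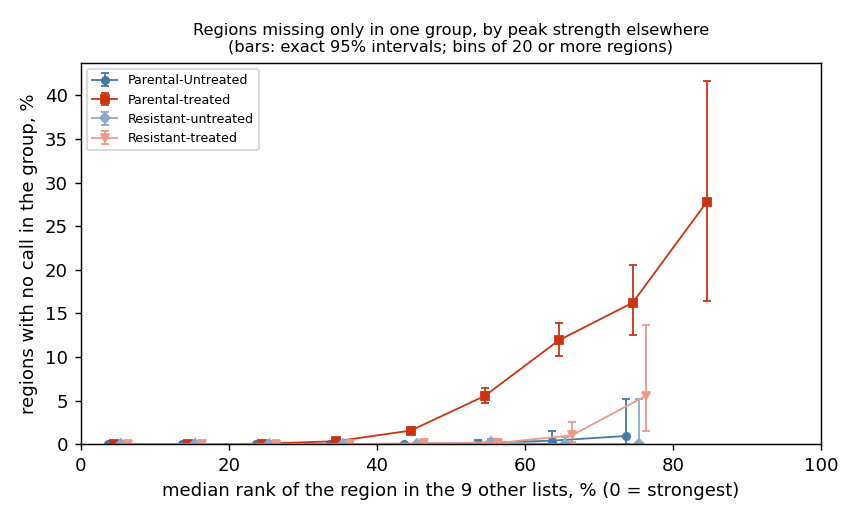
Share of regions with no call in any of the 3 libraries of a group (vertical axis, percent) against the median rank of the region in the 9 lists of the other groups (horizontal axis, percent, 0 strongest), with exact 95% intervals and points for bins of 20 or more regions. The Parental-treated line climbs to 27.8% at ranks of 80% to 90%, while Parental-Untreated and Resistant-untreated regions stay below 1% and the Resistant-treated line ends at 5.56% (4 of 72 regions).

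Members were of intermediate width. Their median was 641 bp (95% interval of the median 604 to 669 bp, quartiles 485 and 920 bp, range 155 to 2315 bp), 107 (23.3%) were wider than 1000 bp and 7 were at most 250 bp wide. Regions called in 1 of 3 and 2 of 3 Parental-treated libraries had medians of 620 and 625 bp, and regions called in 12 libraries a median of 950 bp. The regions missing only in Parental-Untreated, Resistant-untreated and Resistant-treated cells had medians of 810.5, 261 and 489.5 bp, over 6, 7 and 14 regions. By width, the share missing in treated parental cells was 1.97% (7 of 356) up to 250 bp, 3.13% at 250 to 500 bp and 2.19% at 500 to 750 bp. It was 1.02% at 750 to 1000 bp, 1.13% at 1000 to 1500 bp, 0.492% at 1500 to 2000 bp and 0.292% above 2000 bp. A merged region is as wide as the union of its peaks, and the median width of the peaks themselves within members ran from 173.5 bp in Parental-Untreated replicate 3 to 438.5 bp in Resistant-untreated replicate 1.

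By position, fewer members than regions called in 12 libraries lay near a gene end. Of 460, 111 (24.1%, exact 95% interval 20.3% to 28.3%) lay within 1 kb of an end of any gene and 81 (17.6%) within 1 kb of an end of a protein-coding gene. The share was 23.1% for regions called in 1 of 3 Parental-treated libraries, 24.8% for 2 of 3, 51.1% for regions called in 12 libraries and 16.4% for all merged regions. For the 27 regions missing only in another group it was 7.41% (2 regions, 0.910% to 24.3%), an interval that overlaps that of the members. With other definitions of a region the share near a gene end was 54.1% (peaks covering at least 50% of the region) and 68.2% (1-kb windows), but those regions took in only 18 and 1 of the 460 members. Members within the span of a protein-coding gene numbered 273 (59.3%), and 122 (26.5%) lay in no gene span and more than 1 kb from any gene end. Of the 14 regions missing only in Resistant-treated cells, those on chromosomes 1, 10 and 13 were 282268 to 1926794 bp from the nearest gene end.

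**Figure D3:**
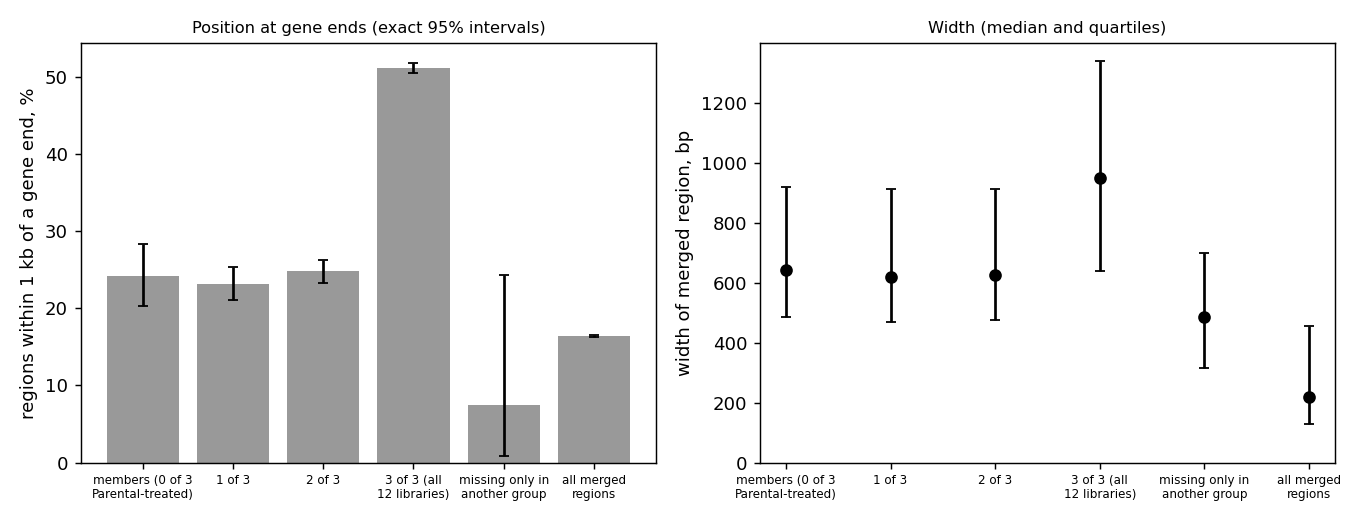
Left, share of regions within 1 kb of a gene end (percent, bars from 0, exact 95% intervals). Right, width of the merged regions (bp, median with quartiles). Sets are ordered by the number of Parental-treated libraries with a call, then the 27 regions missing only in another group and all 178040 regions. Members resemble the regions called in 1 or 2 of 3 treated parental libraries in both, at 24.1% and 641 bp, and differ from regions called in 12, at 51.1% and 950 bp.

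Members lay on every chromosome used, and by the rule none overlapped a peak of a Parental-treated list. The distances given here were not computed for other regions, so they describe the members only. The nearest peak of a Parental-treated list was a median of 6905 bp away (range 17 to 245124 bp), within 200 bp for 4 members, within 1000 bp for 53 (11.5%) and within 5 kb for 182 (39.6%). The nearest region called in 12 libraries was a median of 21246 bp away. Neighbouring members were a median of 2.71 Mb apart, and 3 of 437 neighbouring pairs were within 10 kb. By chromosome the share of regions that were members ran from 0.969% on chromosome 14 to 2.43% on chromosome 8, and the exact 95% interval of each chromosome held the overall 1.55%.

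The starts of 40 protein-coding genes lost every call in treated parental cells. Transcription start sites were listed for 15812 of 19974 protein-coding genes and for no gene on chromosome 8, so that these counts cover only part of the genes. Among 9787 such genes with a peak within 1 kb of a start in 9 of 9 other libraries, 40 (0.409%) had no peak there in the Parental-treated libraries, 137 had one in 1 library and 342 in 2. The count for Parental-Untreated was 0 of 9283 (0%), for Resistant-untreated 0 of 9272 and for Resistant-treated 0 of 9277. Of the 40 genes, 33 had a member within 1 kb of a start and 27 had a start inside a member. Among them, CDX2, GSC, MEIS1, SOX21, NTN4, UNC5A, NRP2, TRAF5, IFITM3 and ZDHHC15 were picked for naming after their values were seen. How common genes of these kinds are among the 9787 was not counted, so the names show no excess of any kind.

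ATOH1, CDX2, GSC, MEIS1, SOX21 and KLF12 were among the 40. ATOH1 is a basic helix-loop-helix factor of neuronal and secretory cell fates, CDX2 a homeobox factor of the intestine, GSC a homeobox factor of the embryonic organizer, MEIS1 a homeobox cofactor of HOX proteins, SOX21 a SOX factor of neural progenitors, and KLF12 a zinc finger repressor. At ATOH1 (chr4:93828234-93829093, which holds the start) the deposited fold was 4.59, 4.26 and 3.47 in Parental-Untreated, 5.55, 5.27 and 5.86 in Resistant-untreated, and 5.49, 4.21 and 6.04 in Resistant-treated libraries. The Resistant-untreated libraries lay above the Parental-Untreated libraries without overlap, by fold and by rank, and no Parental-treated peak lay within 183955 bp. At GSC (chr14:94769469-94770265) it was 3.90, 3.72 and 3.20 in Parental-Untreated, 5.51, 3.55 and 4.74 in Resistant-untreated, and 4.90, 4.54 and 4.73 in Resistant-treated libraries. The Resistant-treated folds lay above the Parental-Untreated folds, but by rank these groups overlapped, at 50.4% to 59.5% against 56.0% to 80.7%. How many regions show an order of 3 against 3 libraries, as at ATOH1 or GSC, was not counted. CDX2 (chr13:27968059-27969463) gave 3.58, 3.59 and 3.60 in Parental-Untreated, 5.06, 3.50 and 4.29 in Resistant-untreated, and 4.17, 3.38 and 3.90 in Resistant-treated libraries. The members at MEIS1 (chr2:66434363-66435316) and SOX21 (chr13:94712651-94713778) had folds of 3.37 to 4.59 and 3.42 to 5.31 over the 9 lists. The folds of the 3 groups overlapped at CDX2, MEIS1 and SOX21.

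KLF12 carried the second widest member (chr13:74133806-74135936, 2131 bp), whose nearest region called in 12 libraries was 1074097 bp away. It holds an internal start of the gene, 170109 bp from the nearest end of a protein-coding gene and 95508 bp from the nearest end of any gene. Its fold was 3.38, 3.65 and 3.17 in Parental-Untreated, 4.41, 5.26 and 4.21 in Resistant-untreated, and 4.33, 3.90 and 4.53 in Resistant-treated libraries. All 6 resistant libraries thus lay above the 3 Parental-Untreated libraries, by fold and by rank. The Parental-Untreated calls were weak, with -log10 q of 1.62, 2.04 and 1.18 and a rank of 92.7% in replicate 3. MYCN, the neuronal paralog of MYC, had a member 329 bp outside its gene end (chr2:15939633-15940221) with folds of 3.58, 3.93 and 3.64 in Parental-Untreated, 4.21, 3.52 and 4.27 in Resistant-untreated, and 3.75, 5.10 and 4.67 in Resistant-treated libraries, which overlapped. A fold is relative to the local background of its own library and was not normalised between libraries. The median fold of a whole list ran from 3.90 to 4.42 in Parental-Untreated and from 4.03 to 4.81 in resistant libraries, so that these orders are descriptions.

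NTN4, UNC5A and NRP2 were also among the 40. NTN4 encodes a laminin-related netrin, UNC5A a netrin receptor, NRP2 a neuropilin that binds semaphorins and VEGF, and their members (chr12:95789736-95790771, chr5:176810192-176811410 and chr2:205682249-205682756) had folds of 3.46 to 5.31, 2.88 to 3.99 and 3.49 to 5.36. So were TNFRSF9, the T cell costimulatory receptor 4-1BB, TRAF5, an adaptor of TNF receptors, and IFITM3, an interferon-induced restriction factor of viral entry. TNFRSF9 (chr1:7940782-7941435) had folds of 4.60, 4.20 and 3.05 in Parental-Untreated, 5.62, 4.79 and 4.21 in Resistant-untreated, and 5.28, 3.54 and 5.89 in Resistant-treated libraries. Its rank in Parental-Untreated replicate 3 was 98.8%, close to the end of that list. The members at TRAF5 and IFITM3 had folds of 3.21 to 4.19 and 3.55 to 5.04.

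Neuronal and other genes completed the starts with the best rank. CACNA2D1 (chr7:82443448-82444552), an auxiliary subunit of voltage-gated calcium channels, had folds of 3.73, 4.32 and 3.12 in Parental-Untreated, 4.27, 3.75 and 4.85 in Resistant-untreated, and 5.17, 4.39 and 4.68 in Resistant-treated libraries. SYN2 (chr3:12004093-12004803), a synaptic vesicle protein, had folds of 4.46, 5.33 and 4.84 in Parental-Untreated, 5.01, 3.70 and 4.93 in Resistant-untreated, and 5.89, 6.35 and 4.67 in Resistant-treated libraries. ZNF792 (chr19:34963117-34964494), a zinc finger gene, ran from 3.55 to 6.85 and TMEM31 (chrX:103711368-103711858) from 4.32 to 6.20. The values of the 3 groups overlapped at SYN2. For CACNA2D1 the Resistant-treated folds were all above the Parental-Untreated ones, but by rank these groups overlapped, at 32.7% to 50.7% against 46.0% to 70.3%. The number of regions with such an order of folds was not counted. GDE1, a glycerophosphodiester phosphodiesterase, and BRI3BP had a member within 1 kb of a gene end at 917 bp inside and 461 bp outside the gene. BRI3BP had a peak at its start in 12 of 12 libraries, so that its member was a separate interval beside a start that treated parental cells kept.

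**Figure D4:**
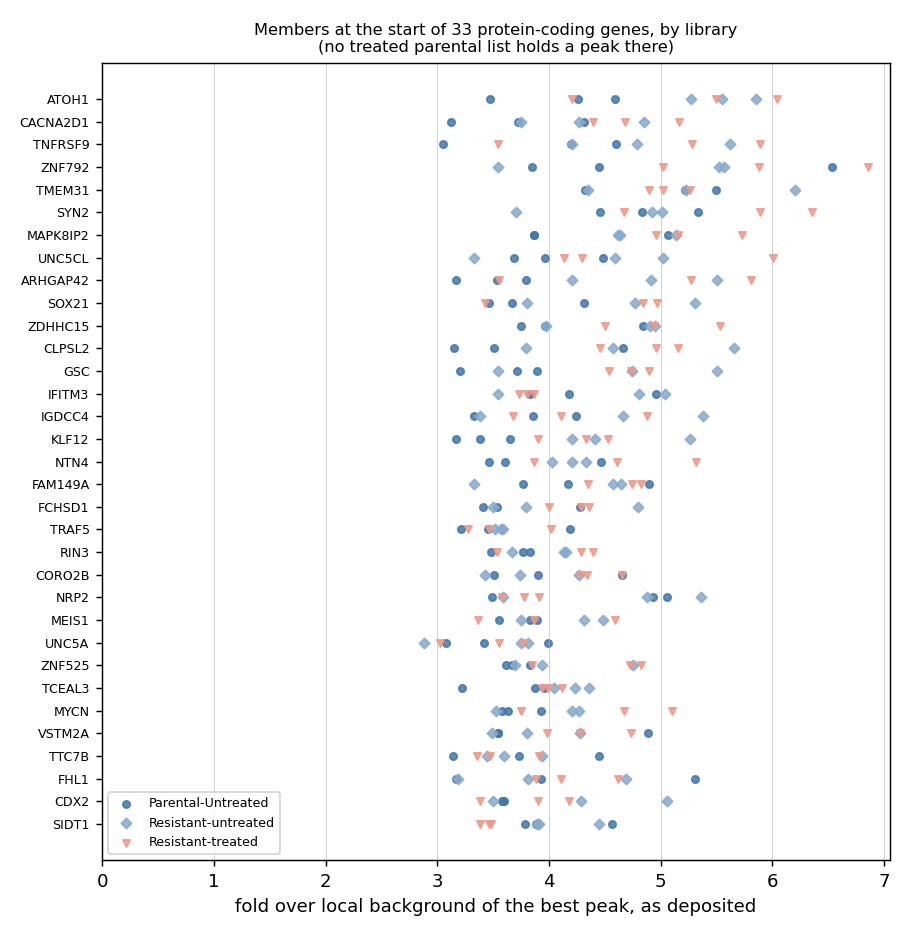
Deposited fold over local background of the best peak (horizontal axis) in each of the 9 libraries that are not Parental-treated, for the members within 1 kb of the start of 33 protein-coding genes, ordered by median rank with the strongest at the top. Points are libraries and shapes are groups. Folds lie between 2.88 (UNC5A) and 6.85 (ZNF792).

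The 8 strongest members by median rank lay 2002 bp or more from an end of a protein-coding gene. The best median rank, 24.7%, belonged to a narrow region of 193 bp (chr6:97186527-97186719) inside MMS22L, a gene of homologous recombination at stalled replication forks. Its fold was 4.72, 7.32 and 6.72 in Parental-Untreated, 9.78, 7.42 and 8.78 in Resistant-untreated, and 8.10, 6.26 and 7.17 in Resistant-treated libraries, and the start of MMS22L itself was called in 12 libraries. A region of 550 bp inside RASA2 (chr3:141576413-141576962), a GTPase-activating protein that turns off RAS, had folds of 6.50, 14.5 and 14.7 in Parental-Untreated, 4.76, 5.37 and 5.60 in Resistant-untreated, and 5.28, 4.91 and 7.73 in Resistant-treated libraries. It ranked at 16.7%, 2.21% and 1.12% in the Parental-Untreated lists and at 17.6% to 45.3% in the 6 resistant lists. The parental lists thus ranked it above every resistant list, although the fold of Parental-Untreated replicate 1 fell within the range of the resistant folds. The nearest Parental-treated peak was 25821 bp from it.

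The reverse order held at an intergenic region near LOC124904960 (chr20:11229675-11230375), 555676 bp from the nearest protein-coding gene end, that of JAG1. Its fold was 3.69, 3.62 and 3.28 in Parental-Untreated, 5.57, 6.24 and 7.16 in Resistant-untreated, and 6.22, 6.00 and 6.81 in Resistant-treated libraries, with the 6 resistant libraries above the 3 parental ones by fold and by rank. A region 4545 bp from C17orf67 (chr17:56787016-56787368) showed the same order, by fold and by rank, with folds of 4.03 to 4.59 in Parental-Untreated and 5.70 to 7.75 in resistant libraries. HSF2BP (chr21:43585933-43586405), a meiotic recombination gene, had folds of 3.91 to 4.38 in Parental-Untreated and 4.80 to 6.86 in resistant libraries, but its ranks overlapped, with 54.4% in Resistant-untreated replicate 3 and 50.1% in Parental-Untreated replicate 3. CRELD2, an endoplasmic reticulum stress gene, had a member 2002 bp away (chr22:49929539-49930122) with folds of 3.66 to 5.87 and a Parental-treated peak at 723 bp. XKR5 and LINC02866 on chromosome 8 had members with median ranks of 29.1% and 30.5%.

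The widest members were at SERPINA3, KLF12 and ANO1. SERPINA3, an acute-phase inhibitor of proteases, had a member of 2315 bp (chr14:94623459-94625773) with folds of only 2.59 to 3.29, and a peak at its start in 10 libraries. ANO1, a calcium-activated chloride channel, had a member of 2034 bp (chr11:70077969-70080002) with folds of 3.05 to 5.55 and a peak at its start in 2 libraries. ANKRD11, a chromatin regulator that binds histone deacetylases, was the only gene with 3 members in its span or flank, at chr16:89301489-89302074, chr16:89325829-89326434 and chr16:89442886-89444299, with folds between 2.64 and 4.03. Its start was called in 12 libraries.

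Of the 13834 protein-coding genes with a region called in the 9 other libraries in their span or within 1 kb, 279 (2.02%) had a member there, 269 of them 1 member and 9 of them 2. From 20 lists of metabolism, signalling, lineage and chromatin genes, 7 of 306 genes with such a region (2.29%) held a member, which is close to the share for all genes, and 13 lists held none. Among these 13 were lactate transport and pyruvate entry, the citric acid cycle, AP-1 factors, pancreatic lineage factors, TGF-beta signalling and the Wnt pathway. In glycolysis and glucose import 1 of 20 genes held a member, PGK1, the enzyme that makes ATP from 1,3-bisphosphoglycerate (chrX:78119374-78120122), with folds of 3.66, 3.78 and 4.20 in Parental-Untreated, 3.20, 4.38 and 4.30 in Resistant-untreated, and 4.86, 4.08 and 3.50 in Resistant-treated libraries. These values overlapped, the member was 9173 bp from the gene end and a Parental-treated peak lay 929 bp from it.

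In the other lists KEAP1, the adaptor that targets NRF2 for degradation (chr19:10492090-10492713), had folds of 3.54, 5.54 and 5.44 in Parental-Untreated, 5.43, 4.51 and 4.83 in Resistant-untreated, and 6.39, 4.09 and 4.52 in Resistant-treated libraries, with no separation of the groups. IGF1R, the receptor of insulin-like growth factor (chr15:98753949-98754641), had folds of 3.37 to 5.63. LATS2, a kinase that restrains YAP (chr13:21033720-21034974), had folds of 3.06 to 3.65. HDAC4, a class IIa histone deacetylase, held members at chr2:239226820-239228325 and chr2:239327679-239329111, with folds of 3.05 to 3.98 and 3.16 to 4.18. Peaks at the starts of PGK1, IGF1R, KEAP1, HDAC4 and LATS2 were called in 12 of 12 libraries, so that their members lay within genes whose start stayed called in treated parental cells.

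The promoters at members were GC-rich. Overlap with a listed promoter was found for 46 members and 51 genes. The median GC content of these promoters was 65.7%, against 68.0% for 205 genes at regions called in 1 of 3 treated parental libraries, 66.3% for 11450 genes at regions called in 12 and 58.3% for all 34961 promoters. A GC box (GGGCGG on either strand) was found for 58.8% of the members' genes. In the other sets, in the same order, it was found for 68.8%, 73.5% and 44.7% of genes, the last over 27195 genes. The shares of the other motifs below are also counted over genes. The ETS letters CCGGAA stood in 9.80%, 15.1%, 32.1% and 17.6%, CCAAT in 25.5%, 19%, 36.9% and 35.7%, and TATAAA in 11.8%, 6.34%, 4.44% and 12.0%. The AP-1 letters TGANTCA stood in 9.80%, 6.34%, 4.48% and 7.73%, and the E-box CACGTG in 5.88%, 7.80%, 10.2% and 7.45%. With 51 genes, 5 give the AP-1 share and 5 the ETS share. A match is a description of the letters and not a bound site. Of 1558 miRNA hairpins 1, MIR7843, was overlapped by a member.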

How the data were processed

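ATAC-seq peak lists of 12 MIAPaCa2 libraries in 4 groups of 3 were used, with groups and replicate numbers from the sample titles. The authors aligned reads with Bowtie2 2.1.0 to hg38, as the submitters' processing notes give it, and called broad peaks per library with MACS2. The MACS2 version, genome size, control and blacklist are not given in the sources used here. Each deposited list gives the authors' score, the authors' fold over local background, and the authors' -log10 p and -log10 q. The lists hold no read counts, so calls were compared and no count test was run. Peaks outside chromosomes 1 to 22 and X (0.892%) were left out.

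Lists were merged at 1 bp of overlap. Gene ends, starts, promoters and hairpins came from RefSeq tables of GRCh38.p14 (59098 genes). No start site was listed on chromosome 8, so its 23 members could not enter the counts over starts or promoters. Relative depth was background pileup over smallest peak width, recovered from the commonest combination of fold and -log10 p in a list (largest misfit 1.13e-05). Absolute depth is unknown, and its effect on a call was not estimated. Technical values were compared by two-sided exact permutation tests of 3 against 9 libraries, adjusted by the Benjamini-Hochberg procedure. Shares have exact Clopper-Pearson 95% intervals for counting error only. The membership script was tested on simulated data.

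Named members were the 8 with the best median rank, the 8 best at 1 kb or less from an end of a protein-coding gene, genes with 3 or more members, the 3 widest and genes of 20 lists. A marker among those checked is not reported here. Members and lists were chosen with earlier results of these data known. Alternatives covered peak thresholds, overlap, merging, windows, width, distance and each library left out. Python 3.11.15, numpy 2.4.6, pandas 2.3.3, scipy 1.17.1 and matplotlib 3.10.9 were used.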

Additional observations from a re-analysis of the deposited data

How the results depend on the processing

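The regions eligible for each group again differed. The count of regions missing only in treated parental cells was above that of each other group under every alternative run. It was 1037 with a -log10 q of at least 3 in every list (0 for Parental-Untreated, 0 for Resistant-untreated and 3 for Resistant-treated), but only 27 of the 460 members were among the regions so found. With that threshold asked of the 9 lists and absence judged on all peaks it was 27 (0, 0 and 0). With the top 45748 peaks of each list it was 346, which overlapped 227 of the members (10, 7 and 9). With peaks covering at least 50% of a region it was 954 (0, 2 and 6), overlapping only 18 of the members, with 1-kb windows 538 (0, 0 and 1), overlapping 1, with peaks of at least 124 bp 699 (3, 1 and 7), overlapping 225, and with 8 or 9 of the 9 other libraries 1237 (21, 29 and 65). Leaving out each library in turn gave 480 to 1340, the highest without Parental-treated replicate 2, and 6 to 14, 7 to 31 and 14 to 45 for the other groups.

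The share within 1 kb of a gene end was 35.9% and 14.8% under the thresholds on all lists and on the 9 lists, 54.1% with 50% cover and 68.2% with 1-kb windows; it was 45.2% within 5 kb and 17.6% for protein-coding genes only, and 22.3% to 25.7% without each library. The median width was 681, 514, 1032 and 602 bp under the 2 thresholds, 50% cover and the 8 or 9 rule, and 618 to 647 bp without each library. At a -log10 q of at least 3 the difference in the number of peaks was -10747 (exact permutation, adjusted p = 0.00909). Number of peaks and cover rest on the calls that the rule used. Without each library the differences ran from 0.670 to 1.22 in relative depth (adjusted p 0.0162 to 0.109), -29.6 to -22.4 bp in smallest width (0.0121 to 0.121), -6065 to 2268 peaks (positive without Parental-treated replicate 1) and -10.3 to -7.54 Mb covered (0.0121 to 0.0727), by exact permutation. The adjusted p were above 0.05 for depth, width and cover without each Parental-treated library, a setting with fewer assignments, and below it without each of the other 9. The cause of these changes, including those in adjusted p, was not tested.

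Replicate numbers did not pair the libraries. Correlations of deviations for the same number ran from -0.0747 to 0.0853, and 5 of 12 libraries correlated best with their own number. With the replicate number as a block the differences were 0.919, -25.6 bp, -2074 peaks and -9.23 Mb, with adjusted exact permutation p of 0.0313, 0.0417, 0.734 and 0.0313, and no call changed. Absolute depth is unknown, so an absent call cannot be told from a weak one.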
